A study of Homo sapiens with 6 samples.

Results

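Accessible regions at 10 genes of the hypoxia response were examined in fixed GM12878 cells by bulk ATAC-seq, in 6 libraries. The genes were taken as a named set, 6 of them for oxygen sensing (HIF1A, ARNT, EPAS1, VHL, EGLN1 and EGLN3) and 4 as targets (CA9, VEGFA, SLC2A1 and BNIP3). A region belonged to a gene when it overlapped its hg19 gene body in GENCODE version 44 or the 10 kb on either side. By this rule 35 of the 56447 regions called in at least 1 library were assigned, 26 to the sensing genes and 9 to the targets.

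GM12878 is a human lymphoblastoid B cell line, here fixed in 1% formaldehyde, and ATAC-seq uses the Tn5 transposase to place sequencing adapters in open chromatin. The 6 libraries were made by 3 protocols of reverse crosslinking, the overnight step at 65 °C that frees transposed DNA from fixed protein, with 2 replicates each. In the SDS protocol (old buffer with purification) this buffer contained SDS, and DNA was cleaned up ahead of PCR. In the SDS-free purified protocol (new buffer with purification) SDS was absent. The paper lists other detergents in its new buffer, and NaCl and EDTA only in the SDS buffer. In the unpurified protocol (new buffer without purification) the SDS-free mixture went directly into PCR, as in the bulk Pi-ATAC workflow. For that workflow the paper also describes a changed lysis buffer, an EDTA quench of the transposition, and pelleting of the cells before reverse crosslinking. It does not say which of these steps the SDS-free purified libraries shared, so protocol contrasts may hold more than the buffer or the purification. No library was stained with an antibody, and the labels name no low-oxygen culture, so these are sites of the line as it was grown. The replicates are not said to come from separate cultures, so the spread between them, and every p value, may be technical.

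Cells measure oxygen through the prolyl hydroxylases EGLN1 and EGLN3. In oxygen these modify the unstable alpha subunits encoded by HIF1A and EPAS1, and the VHL protein, the recognition subunit of a ubiquitin ligase, marks the modified subunits for degradation. When oxygen is low the alpha subunits persist, pair with the stable partner encoded by ARNT, and bind short hypoxia response elements at target genes. Among the targets, CA9 encodes a carbonic anhydrase of the cell surface, VEGFA an angiogenic growth factor, SLC2A1 the glucose transporter GLUT1, and BNIP3 a mitochondrial protein of mitophagy. EGLN3 and EGLN1 are themselves known to be induced by hypoxia, which makes them members of both sides.

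The sequences below are hg19, written 5′ to 3′ on the strand of the gene, with capitals for the core of the hypoxia response element, ACGTG or GCGTG on either strand. They were chosen to show the strongest promoter (HIF1A), 3 called promoters that hold the core (EGLN1, VEGFA and BNIP3), the starts of both genes without a promoter peak (EGLN3 and CA9), and the strongest distal region of a sensing gene (EGLN3) and of a target (SLC2A1). Promoter windows are the nearest 200 bases upstream of the canonical start that hold no exon of a protein-coding gene. For CA9 an exon of ARHGEF39 covers the bases beside the start, and 30 bases are given. Distal windows are 300 bases around the summit.
HIF1A promoter, chr14:62162031-62162230, plus strand: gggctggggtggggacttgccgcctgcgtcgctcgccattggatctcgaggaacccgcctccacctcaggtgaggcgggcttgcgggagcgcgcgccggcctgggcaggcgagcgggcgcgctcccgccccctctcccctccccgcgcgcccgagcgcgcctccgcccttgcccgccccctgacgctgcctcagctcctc
EGLN1 promoter, chr1:231558034-231558233, minus strand: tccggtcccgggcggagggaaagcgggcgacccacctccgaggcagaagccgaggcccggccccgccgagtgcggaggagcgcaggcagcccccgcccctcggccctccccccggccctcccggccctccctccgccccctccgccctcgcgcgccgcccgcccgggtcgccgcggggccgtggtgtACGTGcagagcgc
EGLN3 canonical start, chr14:34420288-34420487, minus strand: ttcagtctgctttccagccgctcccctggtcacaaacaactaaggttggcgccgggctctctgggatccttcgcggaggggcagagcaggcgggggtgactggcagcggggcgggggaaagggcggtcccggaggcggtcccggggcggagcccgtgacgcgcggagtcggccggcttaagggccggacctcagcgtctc
VEGFA promoter, chr6:43737721-43737920, plus strand: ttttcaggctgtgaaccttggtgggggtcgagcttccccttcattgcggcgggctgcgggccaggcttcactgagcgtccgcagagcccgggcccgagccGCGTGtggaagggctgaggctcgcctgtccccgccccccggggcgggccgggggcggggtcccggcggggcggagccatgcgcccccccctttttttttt
BNIP3 promoter, chr10:133795472-133795671, minus strand: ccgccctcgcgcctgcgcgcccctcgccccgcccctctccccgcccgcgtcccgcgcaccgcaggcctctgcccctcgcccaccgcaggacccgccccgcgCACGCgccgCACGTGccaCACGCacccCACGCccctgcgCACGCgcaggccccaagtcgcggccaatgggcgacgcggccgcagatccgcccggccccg
CA9 start, chr9:35673895-35673924, plus strand: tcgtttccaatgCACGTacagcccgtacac
EGLN3 distal region, chr14:34513023-34513322, minus strand: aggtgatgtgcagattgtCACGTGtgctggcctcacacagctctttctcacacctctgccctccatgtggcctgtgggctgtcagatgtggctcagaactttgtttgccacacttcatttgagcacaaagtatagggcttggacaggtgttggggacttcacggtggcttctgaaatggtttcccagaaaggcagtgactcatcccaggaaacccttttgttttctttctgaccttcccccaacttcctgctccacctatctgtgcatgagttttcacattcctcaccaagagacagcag
SLC2A1 distal region, chr1:43389869-43390168, minus strand: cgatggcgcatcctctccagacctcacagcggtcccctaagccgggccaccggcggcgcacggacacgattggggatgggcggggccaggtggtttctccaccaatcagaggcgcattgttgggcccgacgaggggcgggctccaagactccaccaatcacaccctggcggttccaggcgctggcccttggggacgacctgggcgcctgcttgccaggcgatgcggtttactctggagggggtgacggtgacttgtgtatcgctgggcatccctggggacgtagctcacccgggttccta

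BNIP3 held the core at 5 places, among them the palindrome CACGTG, which reads as the core on both strands. EGLN1 had ACGTG 13 bases upstream of its canonical start and VEGFA had GCGTG 127 bases upstream. CA9 had the reverse complement CACGT from 18 bases upstream of its start, in a promoter that no library called. In windows chosen the same way, EPAS1 and VHL each had 1 core, and HIF1A, ARNT, SLC2A1, EGLN3 and CA9 had none, so 5 of 10 genes held the core in these windows. The CA9 window so chosen began 117 bases upstream of its start and left out the 30 bases shown. Taken directly beside the canonical start, 200 bases held the core in 6 of the 10 genes, while 45.6% of the same windows at 19540 protein-coding genes held it. That share was 55.2% where the promoter was called in all 6 libraries and 33.3% where it was called in none. The EGLN3 distal window held CACGTG once and the SLC2A1 distal window held no core. Around their summit, 28.4% of 43537 distal regions held a core. The share was 31.1% of the 11772 called in all 6 libraries, as both of these regions were. A match of 5 letters is a description and does not show a bound site.

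The libraries were similar in size. They held 30136 to 38023 peaks, and the median peak had 20 to 22 reads at its summit. Read totals are not in the peak lists, so relative depth was taken from the lowest local background, which ranged from 1.51 to 1.86 reads and was lowest in the second replicates of both purified protocols. Of 6 B cell markers, all had an own-promoter peak in at least 1 library and 1, MS4A1, had it in all 6, while none of 9 markers of other cell types had one in any library. The value used below is the −log10 q of a peak at its summit, with its rank percentile among all peaks of the same library, where 100 is the strongest peak.

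Most of these genes had an open promoter in this line. An own-promoter peak, within 1 kb of a start of a protein-coding transcript of the gene, was called in all 6 libraries at 7 of 10 genes (HIF1A, ARNT, EPAS1, VHL, EGLN1, SLC2A1 and BNIP3), where the background over 19820 protein-coding genes was 45.6%. VEGFA was called in 4 libraries. EGLN3 and CA9 were called in none, the case for 39.4% of all genes. By role, 5 of 6 sensing genes and 2 of 4 targets were called in all 6, and with so few genes this split was not tested.

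The HIF alpha subunits were far apart. HIF1A, the widely expressed alpha subunit, had the strongest promoter of the set, at chr14:62161725-62162791. The −log10 q of HIF1A was 55.5 and 39.6 in the SDS libraries, replicates 1 and 2 in that order here and below, 51.2 and 34.7 in the SDS-free purified ones, and 47.3 and 38.8 in the unpurified ones. That placed it between the 95.4 and 99.1 percentile of each library, with 61 to 91 reads at the summit. EPAS1, which encodes the alpha subunit known from endothelium and kidney, was among the weaker promoters, at chr2:46524082-46525192. The −log10 q of EPAS1 was 14.6 and 5.72 in the SDS libraries, 15.0 and 12.1 in the SDS-free purified ones, and 13.8 and 6.87 in the unpurified ones. EPAS1 therefore ranged from the 22.0 to the 69.9 percentile, the widest range among the genes called in every library, and its lowest values fell in replicate 2 of the SDS and of the unpurified protocol. In each library HIF1A ranked above EPAS1, and their ranges did not overlap.

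ARNT, the constitutive partner, resembled HIF1A more than EPAS1. At chr1:150848629-150849532 its −log10 q was 32.1 and 26.1 in the SDS libraries, 32.2 and 23.6 in the SDS-free purified ones, and 28.5 and 35.2 in the unpurified ones. Its percentile stayed between 88.1 and 94.6. VHL, whose product removes the alpha subunits in oxygen, was intermediate at chr3:10183175-10184050. The VHL −log10 q was 18.7 and 9.99 in the SDS libraries, 20.4 and 16.0 in the SDS-free purified ones, and 14.8 and 12.8 in the unpurified ones, or the 55.4 to 81.0 percentile.

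The prolyl hydroxylases differed. EGLN1, the main oxygen sensor of most cells, had a broad promoter region of 1205 bp at chr1:231557403-231558607. For EGLN1 the −log10 q was 29.3 and 23.9 in the SDS libraries, 39.0 and 32.2 in the SDS-free purified ones, and 34.0 and 39.3 in the unpurified ones. All 6 values lay between the 89.3 and 96.1 percentile. EGLN3, the hydroxylase known for strong induction by hypoxia, had no peak within 1 kb of any of its coding starts.

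Among the targets, BNIP3 had the strongest promoter. At chr10:133795005-133795993 its −log10 q was 27.8 and 18.5 in the SDS libraries, 27.3 and 26.4 in the SDS-free purified ones, and 26.5 and 25.1 in the unpurified ones. Apart from replicate 2 of the SDS protocol, all libraries lay between 25.1 and 27.8, and the percentile ranged from 81.9 to 90.6. SLC2A1 was weaker, at chr1:43423771-43424899, a region shared with the start of its divergent transcript SLC2A1-DT. Its −log10 q was 9.94 and 9.59 in the SDS libraries, 13.4 and 14.2 in the SDS-free purified ones, and 13.7 and 14.2 in the unpurified ones. Both SDS libraries were below the other 4, at a percentile of 51.3 and 53.3 against 65.3 to 70.7.

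VEGFA was called in some libraries and not in others. Its region at chr6:43737409-43738026 had a −log10 q of 13.9 in SDS replicate 1, 10.9 in SDS-free purified replicate 1, and 8.04 and 7.62 in the unpurified libraries. It was not called in replicate 2 of either purified protocol, the pair of libraries with the lowest background reads, and the part of depth in this was not tested. A second VEGFA region, chr6:43738967-43739369, 1019 bp downstream of the canonical start, was called only in unpurified replicate 2, with a −log10 q of 7.95. CA9 had no own-promoter peak, and the 1 region in its window, chr9:35665002-35665463, lay 8462 bp upstream at the promoter of ARHGEF39. No peak in a list is not a measured 0: a peak absent at q 0.01 may lie under the threshold of that library.

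**Figure D1:**
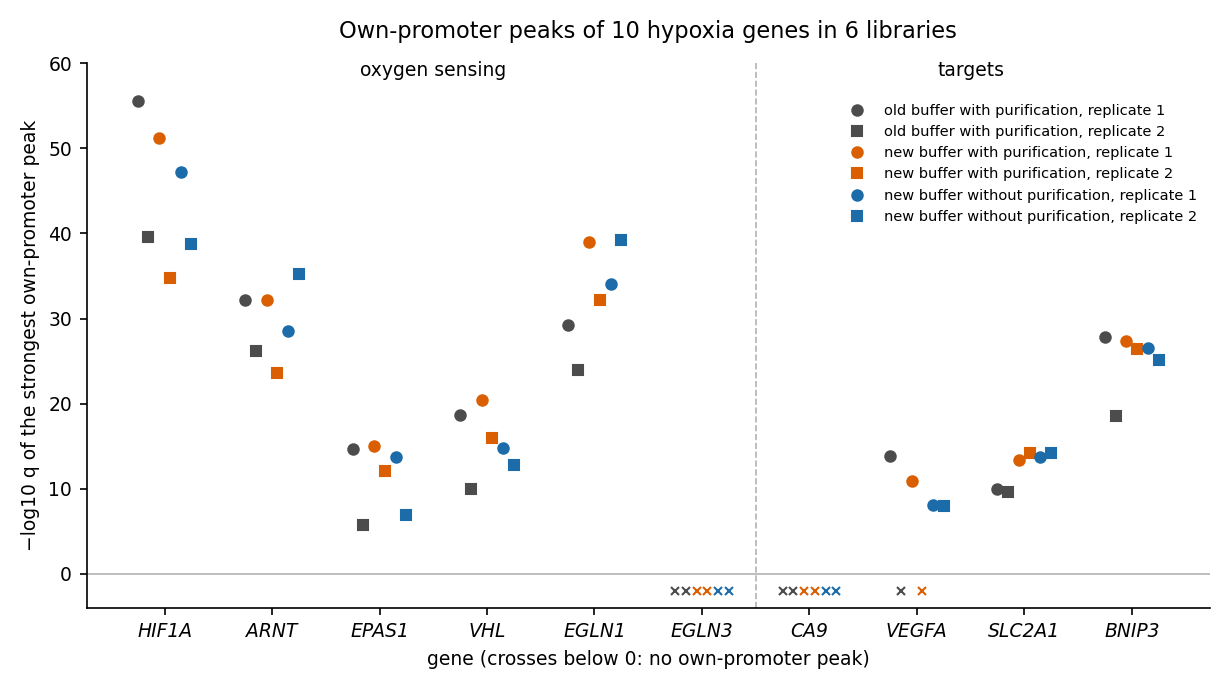
The −log10 q of the strongest own-promoter peak (vertical axis) is plotted for each of 10 genes, with circles for replicate 1, squares for replicate 2 and a colour for each protocol, and crosses below 0 mark libraries without such a peak. HIF1A reached 34.7 to 55.5, VEGFA lacked the peak in 2 libraries, and EGLN3 and CA9 had crosses in all 6.

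Ranked by the median percentile over the 6 libraries, with 0 where no peak was called, the order was HIF1A at 97.5, EGLN1 at 93.8, ARNT at 91.8, BNIP3 at 88.5, VHL at 72.3, SLC2A1 at 65.6, EPAS1 at 65.0 and VEGFA at 39.9, with EGLN3 and CA9 at 0. Neighbours from HIF1A to BNIP3 overlapped in their ranges, as did VHL, SLC2A1 and EPAS1. BNIP3, at 81.9 or above in every library, did not overlap VHL, at 81.0 or below. Over all 9039 genes with a promoter called in every library the mean percentile had a median of 78.6 and quartiles of 61.8 and 90.7. HIF1A, ARNT and EGLN1 were above the upper quartile by their means, of 97.3, 91.6 and 93.4, and EPAS1, with a mean of 53.9, was below the lower one.

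Taken by role, the median percentile of the sensing genes was above that of the targets in each library. The difference was 26.2 and 45.7 in the SDS libraries, 26.1 and 46.5 in the SDS-free purified ones, and 26.9 and 24.9 in the unpurified ones. The 2 largest differences belonged to the libraries in which VEGFA was not called and counted as 0. Averaged over the 6 libraries the difference was 32.7, and the pooled SD between replicates of a protocol was 11.5. Counting EGLN3 as a target raised the mean difference to 59.8, with a pooled SD of 29.1. Counting both EGLN3 and EGLN1 as targets left it at 33.0, with a pooled SD of 11.6. The genes were chosen and are not replicates, so the difference carries no test. In the wider lists described below, the medians of both roles were nearly equal.

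The summits lay close to the starts. At HIF1A all 6 summits were 113 to 153 bases upstream of the canonical start, and at ARNT 115 to 177 bases upstream. EGLN1 and BNIP3 also had every summit upstream, by 3 to 231 and 16 to 176 bases. VHL, SLC2A1 and VEGFA had summits on both sides of the start. At EPAS1, 5 summits were upstream and 1 was 468 bases downstream.

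Base composition differed between the uncalled genes. In the 500 bases on each side of the canonical start, the CpG ratio (observed over the value from C and G content) was 0.84 at EGLN3, higher than at 74.7% of genes, and 0.14 at CA9, higher than at only 4.59%. The other 8 genes ranged from 0.71 at ARNT to 1.04 at VHL. Over all genes with a canonical start, the own promoter was called in no library for 82.5% of the 4885 genes with the lowest CpG ratio, up to 0.42, where CA9 belongs. It was called in no library for 19.1% of the 4885 genes between 0.73 and 0.84, where EGLN3 belongs. In these groups 8.09% and 63.6% of genes were called in all 6. EPAS1, VHL, EGLN1, SLC2A1 and BNIP3 belong to the 4885 genes with the highest ratio, of which 68.0% were called in all 6.

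Away from coding starts, the windows held 23 distal regions, over 1 kb from every start of a protein-coding transcript. Some of them lay at or near starts of other transcripts of the same gene, as given below. The sensing genes had 19 of them, 17 of these at EGLN3, and the targets had 4. The remaining 12 regions were 9 at own promoters and 3 at promoters of neighbouring genes. ARNT, EPAS1, VHL, CA9 and VEGFA had no distal region, as did 54.4% of protein-coding genes with windows drawn alike. Per 100 kb of window this was 2.02 distal regions for sensing genes and 2.64 for targets. The difference of -0.63 turned with the window: with 25 kb on either side the values were 1.78 and 1.47. These values pool the windows of a role. Counted gene by gene with 10 kb on either side, 20162 protein-coding genes had a median of 0 and an upper quartile of 2.30 per 100 kb. The whole genome held 1.41 per 100 kb.

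Most distal regions of the sensing side lay in the long body of EGLN3. Its annotated body spans 538548 bp because transcripts, most of them without a defined coding sequence, start far upstream of the canonical start, and without EGLN3 the other 5 sensing genes had 2 distal regions in 383 kb, or 0.52 per 100 kb. Within the transcripts that begin at the canonical start and 10 kb around them, a window of 46.9 kb, no library called any region. The nearest, EGLN3 region 1 in genome order, was 28830 bp upstream and was called in 1 library. The other 16 distal regions lay 67.6 to 397 kb upstream, and 6 of the 17 were called in all 6 libraries, 6 in 2 to 5 and 5 in 1.

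The strongest of these, EGLN3 region 3 at chr14:34512865-34513487, was 92585 bp upstream of the canonical start, in an intron, and also inside EGLN3-AS1. Its −log10 q was 33.8 and 35.9 in the SDS libraries, 33.4 and 19.8 in the SDS-free purified ones, and 38.7 and 17.4 in the unpurified ones. It ranked between the 76.8 and 96.5 percentile, with 4 of 6 libraries between 93.2 and 96.5 and replicate 2 of both SDS-free protocols lower. The other 5 called in all 6 libraries were much weaker, with median percentiles of 15.3 to 61.2. Region 2, called in 2 libraries, lay over the start of an EGLN3 transcript not annotated as protein-coding. Region 14, chr14:34697059-34697577, lay 39 bp from the start of an EGLN3 transcript without a defined coding sequence, and region 19 at the far end of the gene was the SPTSSA promoter, with a percentile of 90.3 to 97.4.

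**Figure D2:**
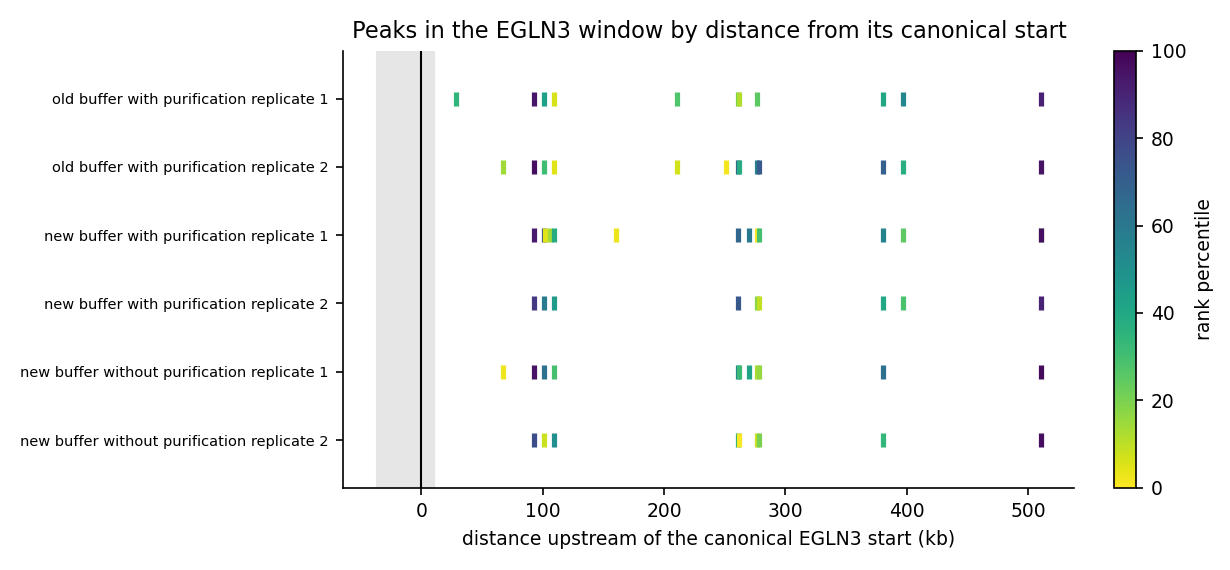
Each mark is a region called in the EGLN3 window, by its distance upstream of the canonical start in kb (horizontal axis) and by library (rows), coloured by rank percentile, and the grey band is the 46.9 kb window of the transcripts that begin there. The band holds no mark, the region 92.6 kb upstream is present in all 6 rows, and the SPTSSA promoter closes the window at 511 kb.

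HIF1A had 1 distal region, chr14:62217563-62218266, past the end of the gene and 55332 bp from its start, over an exon of the antisense gene HIF1A-AS3. Its −log10 q was 22.3 and 18.7 in the SDS libraries, 35.6 and 16.9 in the SDS-free purified ones, and 28.2 and 27.0 in the unpurified ones. It was called in every library and reached the 77.7 to 94.2 percentile, below the HIF1A promoter in each. EGLN1 had 1 distal region, in its downstream flank, which was called in 1 library at a −log10 q of 6.20.

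SLC2A1 had the most distal regions of the targets, 3 in all. The strongest, chr1:43389766-43390558, lay in the downstream flank 33981 bp from the canonical start. This region overlapped an exon of an annotated gene without a symbol and was 4612 bp from the nearest start of any SLC2A1 transcript. Its −log10 q was 16.0 and 9.12 in the SDS libraries, 21.1 and 16.1 in the SDS-free purified ones, and 21.3 and 19.3 in the unpurified ones. It ranked above the SLC2A1 promoter in 5 of 6 libraries, the exception being SDS replicate 2. The intronic region chr1:43397459-43398259 was also called in all 6, at −log10 q of 7.21 to 15.6, and lay 19 bp from the start of a shorter SLC2A1 transcript with a retained intron. Another, of 200 bp, was called in 1 library, as was the only distal region of BNIP3.

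Of the 35 regions, 17 were called in all 6 libraries, 8 in 2 to 5 and 10 in 1, and the background share called in all 6 was 35.5%. By class, 7 of 9 own-promoter regions were called in all 6, where the background of promoter regions was 64.2%, and 9 of 23 distal regions, where that of distal regions was 27.0%. Of these 9, 6 were at EGLN3, 2 at SLC2A1 and 1 at HIF1A. Among all regions called in every library, the median percentile was 76.8 at promoters and 62.0 at distal sites. The windows took 21 to 27 peaks from a library, 0.0634% to 0.0726% of its peaks.

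**Figure D3:**
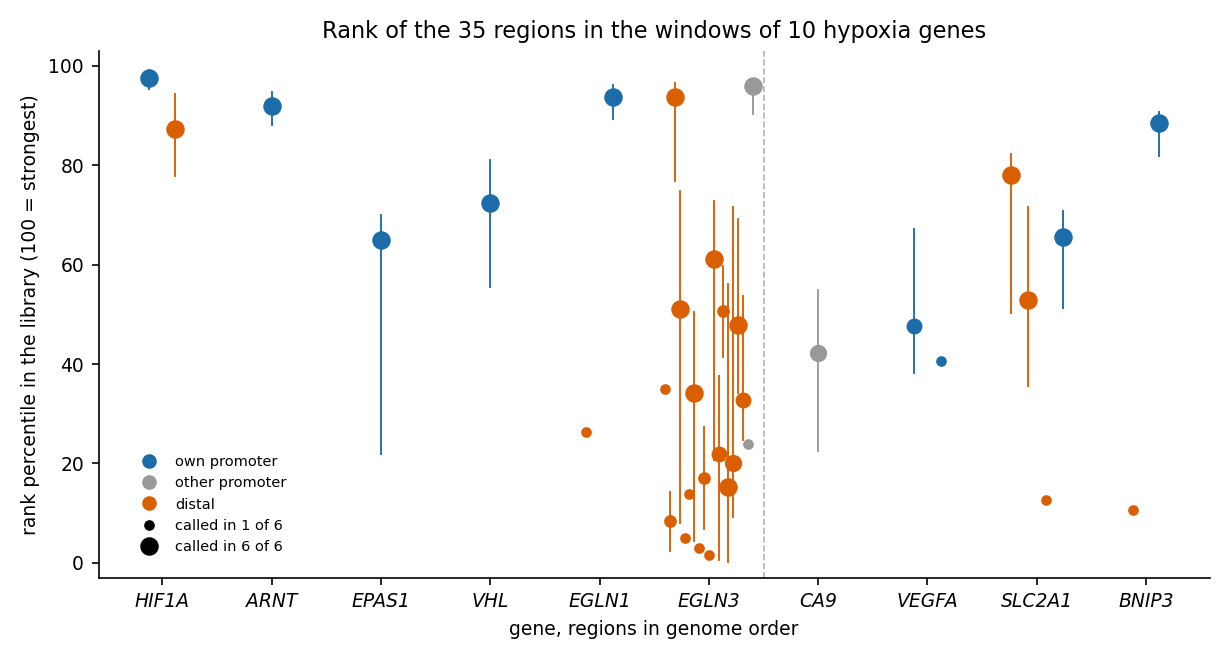
The rank percentile (vertical axis, 100 = strongest) is shown for each of the 35 regions by gene, with a dot at the median of the libraries that called it, a line from the lowest to the highest, colour for the class and dot size for the number of libraries. HIF1A, ARNT, EGLN1 and BNIP3 show a promoter near the top, and most EGLN3 regions are distal and spread over the lower ranks.

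Other hypoxia genes were read from wider lists. Of 12 further genes of the sensing machinery, 8 had an own-promoter peak in all 6 libraries and 2 in none. The latter were ARNT2, a paralog of ARNT best known from neurons, and HIF3A, a further alpha subunit. The highest mean percentiles were 95.6 for SIAH2 and 90.9 for SIAH1, ubiquitin ligases that act on the hydroxylases, and 95.3 for CUL2, the scaffold of the VHL ligase. Of 35 further targets, 24 were called in all 6 and 3 in none. Those in none were ADM, which encodes adrenomedullin, CA12, another carbonic anhydrase, and EPO, the red cell hormone. The highest were PDK1 at 98.4, a kinase that restrains pyruvate oxidation, INSIG2 at 98.2, a regulator of sterol synthesis, and PGK1 at 97.1, an enzyme of glycolysis. The shares called in all 6 were 66.7% and 68.6%, beside the 45.6% of all genes given above.

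The protocols were then compared at the 20064 regions called in all 6 libraries, 17 of them in these windows, using the log2 of the fold enrichment at the summit over local background and limma over all regions. None of the 17 regions differed between protocols after Benjamini-Hochberg adjustment. Between the SDS-free purified and the SDS protocol 0 of 17 were called, beside a background of 0.00498%, or 1 region. Between the unpurified and the SDS protocol 0 of 17 were called, beside a background of 0%. Between the unpurified and the SDS-free purified protocol it was again 0 of 17 beside 0%. At an unadjusted limma p under 0.05 there were 2, 1 and 0 of the 17 regions and 1227, 1177 and 863 of all regions in these comparisons.

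At the 17 regions, the log2 difference in fold enrichment of SDS-free purified minus SDS libraries ranged from -0.45 to 0.46 with a median of 0.11, while the median of all regions was -0.0038. Unpurified minus SDS ranged from -0.40 to 0.44, with a median of 0.02. Unpurified minus SDS-free purified ranged from -0.45 to 0.19, with a median of -0.03. The median SE was 0.20. At the HIF1A promoter SDS-free purified minus SDS was -0.20 with a 95% interval of -0.52 to 0.12 (limma adjusted p = 0.90), and at BNIP3 it was 0.09 with an interval of -0.26 to 0.44 (adjusted p = 0.97).

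The largest differences were at distal EGLN3 regions. At region 4, SDS-free purified minus SDS was 0.46 with an interval of -0.02 to 0.95 (limma adjusted p = 0.82). There unpurified minus SDS-free purified was -0.45 and unpurified minus SDS was 0.02, so the 2 SDS-free protocols did not go together. Region 7, chr14:34529250-34529897, had a fold enrichment of 4.05 and 4.14 in the SDS libraries, 5.37 and 5.76 in the SDS-free purified ones, and 4.97 and 6.25 in the unpurified ones. Both SDS-free protocols were above the SDS protocol without overlap, by 0.44 each on the log2 scale (SE 0.20, limma adjusted p = 0.80 and 0.83). Region 14 went the other way, with 4.97 and 5.96 in the SDS libraries, 3.35 and 4.75 in the SDS-free purified ones, and 4.32 and 3.92 in the unpurified ones. SDS-free purified minus SDS was -0.45 with an interval of -0.87 to -0.03 (limma adjusted p = 0.80). Neither passed the adjusted threshold of 0.05. Both were weak, with 12 to 19 summit reads at region 7 and 12 to 22 at region 14. Region 7 fell to the 4.38 percentile in SDS replicate 2, and region 14 to the 0.09 percentile in SDS-free purified replicate 1.

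The SDS-free purified and the SDS libraries did not overlap at 9 of the 17 regions, beside 33.8% of all regions. For unpurified against SDS libraries this was 7 of 17 beside 35.0%, and for unpurified against SDS-free purified ones 3 of 17 beside 32.2%. At the SLC2A1 promoter, the SDS-free purified and the unpurified libraries lay above the SDS libraries by 0.22 and 0.21 on the log2 scale, with intervals of -0.20 to 0.63 and -0.21 to 0.63 (limma adjusted p = 0.92 and 0.93).

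**Figure D4:**
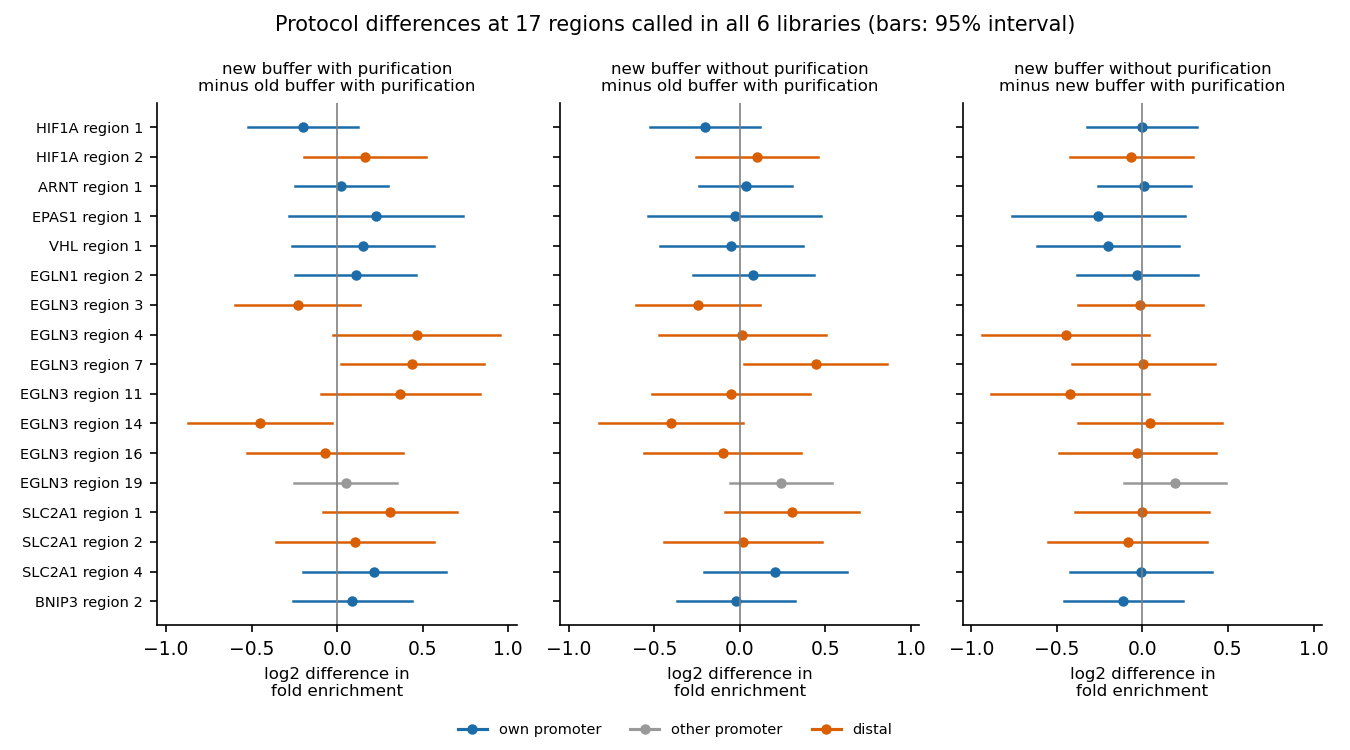
The log2 difference in fold enrichment between 2 protocols (horizontal axis) is drawn for the 17 regions called in all 6 libraries, with dots at the estimate and bars for the 95% interval from limma, and regions numbered in genome order within a gene. Most bars cross 0, and the exceptions are EGLN3 region 7 in the 2 panels against the old buffer (the SDS protocol) and EGLN3 region 14 in the first.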

How the data were processed

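The authors trimmed reads, aligned them to hg19 with Bowtie2 2.1.0, kept high-quality proper pairs, and discarded duplicates (Picard 1.79) and mitochondrial reads. Narrow peaks were then called by MACS2, whose version is not given in the sources used here, with a q threshold of 0.01. The methods describe merging reads per condition, but there is 1 list for each library. Each deposited peak has a score, which was left aside. It also has a fold enrichment of its summit (a ratio to the local background) and, as deposited, the −log10 of p and of q at that summit, and these were used as given.

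From there, overlapping or touching peaks of the 6 libraries were merged into regions, each called by every library with a peak over at least 1 bp of it. Reads at a summit were solved from its fold enrichment and p value. Protocols were compared with limma 3.58.1 in R 4.3.3 (empirical Bayes with trend, all 6 libraries, Benjamini-Hochberg over 20064 regions), since the lists hold no counts. Overlaps were checked against bedtools 2.31.1, and the fit was tested on simulated data. Sequences were read from the GRCh37 genome, which is hg19, and starts and exons from GENCODE version 44. Python 3.11.15, pandas 2.3.3, NumPy 2.4.6, SciPy 1.17.1, matplotlib 3.10.9 and samtools 1.23.1 were used.

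The members, the lists and the tests were chosen with earlier results of these data known. All 10 members were named, and from the lists those with no own-promoter peak and the 3 with the highest mean rank. The sequences printed were chosen among the members after their values were seen. 1 gene of the list of further targets is not reported here. PECAM1, a marker in the list of other cell types, was not matched in the annotation. Alternatives were other promoter windows (500 and 2500 bp), flanks (0 and 25 kb), merging over 100 bp, a −log10 q of at least 5, an equal number of 30136 peaks for each library, summit reads, centring, a replicate block, other roles for EGLN3 and EGLN1, and each library left out. The EGLN3 window on its canonical start, the left-out libraries for distal density and for the number of regions, and the flanks, merging and peak thresholds for the regions called in all 6 libraries were added after seeing the data.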

Additional observations from a re-analysis of the deposited data

How the results depend on the processing

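The number of members with an own promoter called in all 6 libraries stayed at 7 to 8 under 11 alternatives, and was 8 when the starts of all transcripts counted, which added EGLN3. EGLN3 entered there through starts far upstream, at region 19, which is the SPTSSA promoter, and 39 bp from the weak region 14. In the 46.9 kb window on the canonical EGLN3 start no region was called. The number of regions in the windows stayed within 1.5 times its value under 11 alternatives. Of these regions, 8 were called in all 6 libraries where 50% of the region had to be covered, a stricter rule by construction, and 11 other alternatives stayed within 1.5 times of 17. The sensing minus target difference in median percentile was 59.8 with EGLN3 as a target and 33.0 with EGLN3 and EGLN1 as targets. It was 29.9 to 34.3 without each library. The difference in distal regions per 100 kb turned to 0.31 with a flank of 25 kb. It was -2.44 with EGLN3 as a target, -2.46 with EGLN3 and EGLN1 as targets, -2.14 for gene bodies only, -2.18 with the EGLN3 window on its canonical start, and -0.73 to -0.071 without each library. The value nearest to 0 came without SDS replicate 1.

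Regions called by limma between the SDS-free purified and the SDS protocol were 9 with summit reads divided by the library median, and 0 to 1 without each library, with 0 without any of the 4 libraries compared. Between the unpurified and the SDS protocol they were 4 with summit reads, 1 with median centring, 2 with the replicate block, and 0 to 2 without each library, 2 without SDS-free purified replicate 1 and 1 without unpurified replicate 2. The 0 between the unpurified and the SDS-free purified protocol held under all 10 alternatives. Leaving out a library left its protocol with 1 sample, assumed to vary like the others. The correlation of replicate differences between protocols was 0.013, -0.00080 and 0.015, so the numbers 1 and 2 were not taken as pairs. The causes were not tested. The weakest member peaks had 10 summit reads.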
